A study of Homo sapiens with 6 samples.

Results

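The regions described here lay between genes and carried the mark labelled H3K4me3 without that labelled H3K27ac in HSC3 cells that had received a control siRNA. They were selected on measured peak calls. A member was a region of the H3K4me3 list on chromosomes 1 to 22 and X that lay more than 1 kb from every transcription start site (TSS) of a GENCODE protein-coding or lncRNA gene. It was overlapped by no H3K27ac region of the same cells, and its summit, the position of the highest signal, lay outside all such genes. Of 58582 H3K4me3 regions, 34745 lay away from TSSs, 32277 of these had no H3K27ac, and 10754 of the latter had an intergenic summit. The members thus made up 18.4% of the list and covered 7.17 Mb.

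HSC3 is an established cell line from an oral squamous cell carcinoma (OSCC). Cells were transfected with a control siRNA (siCONT) or with an siRNA against the lncRNA DLEU1 (siDLEU1), and after 72 h chromatin was precipitated with an antibody against H3K4me3 or H3K27ac. There was 1 library for each siRNA and mark, from 1 cell line and 1 siRNA sequence against DLEU1, so differences between the siRNAs were not checked against replicates and are given without p-values. The depth recovered from the lists was 28.4 M reads for siCONT H3K4me3, 22.3 M for siDLEU1 H3K4me3, 21.5 M for siCONT H3K27ac and 29.4 M for siDLEU1 H3K27ac. Ranges in parentheses after a share are 95% Wilson intervals, which reflect only how many regions were counted.

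H3K4me3 is written by the SET1 and MLL methyltransferase complexes and is best known from active promoters, above all those in CpG islands. H3K27ac is written by CBP and p300 and marks both active promoters and active enhancers. Active enhancers between genes are classically described as rich in H3K27ac and poor in H3K4me3, and they often hold binding sites of AP-1, the FOS and JUN dimer, which is prominent in squamous cells.

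The lists did not follow this textbook division of the marks. In control cells, 40.7% (40.3 to 41.1) of the regions labelled H3K4me3 lay within 1 kb of a TSS, against 84.8% (84.3 to 85.3) of those labelled H3K27ac. In siDLEU1 cells the shares were 39.0% and 91.2%. The median CpG ratio (observed over expected) at the summits was 0.304 in the control list labelled H3K4me3 and 0.733 in that labelled H3K27ac. Of 39 HOX genes, 20 had a region labelled H3K4me3 at the TSS and 26 one labelled H3K27ac. Whether the labels of the marks had been exchanged was not tested, and both siRNAs showed the same division. The names of the marks below are therefore those of the labels. All 16 squamous marker genes examined, among them KRT5, KRT14 and TP63, had regions of both marks at the TSS in control cells. Both marks were common there, at 11717 of all 20098 protein-coding genes. H3K27ac at the TSS was found for 1 of 4 blood genes (CD14), 1 of 4 fibroblast genes (COL1A1), 1 of 3 neural genes (SNAP25) and 0 of 2 muscle genes, and the endothelial gene CDH5 had none. H3K4me3 at the TSS was found for the same blood and fibroblast genes and for all 3 neural genes (SNAP25, SYP and GFAP). The muscle genes and CDH5 had no H3K4me3 there.

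Neighbouring members often stood on either side of a short gap, and the sequence of these gaps is shown first. The first 2 lines give 200 bp around the middle of the gap for the 2 strongest pairs of members, ranked by the weaker fold of the pair among gaps of up to 400 bp. These gaps lie side by side between the keratin gene KRT17 and the translation factor gene EIF1. The next 2 lines are the strongest further pairs with an AP-1 match, nearest to the protein-coding genes FAM43A and CACNG4, and the last is the strongest such pair with a member not called in siDLEU1 cells, beside GABRE. Sequences are of the plus strand of GRCh37 (hg19), and capitals mark the AP-1 motif TGANTCA.
Keratin gap A, chr17:39810515-39810714: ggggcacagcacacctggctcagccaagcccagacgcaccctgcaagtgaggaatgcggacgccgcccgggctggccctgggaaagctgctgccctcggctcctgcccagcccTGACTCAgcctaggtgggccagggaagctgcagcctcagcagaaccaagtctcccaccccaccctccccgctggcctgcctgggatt
Keratin gap B, chr17:39812034-39812233: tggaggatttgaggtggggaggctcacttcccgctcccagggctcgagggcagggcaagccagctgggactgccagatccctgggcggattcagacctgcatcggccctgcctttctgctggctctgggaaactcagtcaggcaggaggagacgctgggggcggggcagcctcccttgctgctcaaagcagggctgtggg
FAM43A gap, chr3:194592284-194592483: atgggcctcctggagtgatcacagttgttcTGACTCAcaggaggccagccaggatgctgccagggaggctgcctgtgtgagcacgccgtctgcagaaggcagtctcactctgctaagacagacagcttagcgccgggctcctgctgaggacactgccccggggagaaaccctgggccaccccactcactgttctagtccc
CACNG4 gap, chr17:64948285-64948484: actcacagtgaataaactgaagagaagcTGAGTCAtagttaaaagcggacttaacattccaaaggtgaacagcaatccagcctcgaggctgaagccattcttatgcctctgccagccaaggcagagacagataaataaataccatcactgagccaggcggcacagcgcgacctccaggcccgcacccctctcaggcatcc
GABRE gap, chrX:151152815-151153014: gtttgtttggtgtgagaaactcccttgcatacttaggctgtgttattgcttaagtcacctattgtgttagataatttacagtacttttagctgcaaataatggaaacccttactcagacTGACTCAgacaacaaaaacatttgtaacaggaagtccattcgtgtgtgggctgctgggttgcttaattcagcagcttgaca

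Keratin gap A was 104 bp long and separated members of 39.7-fold and 47.1-fold enrichment, with the motif 17 bp to the right of its middle. Gap B, of 150 bp, held no match. In the FAM43A window the match lay at −66 bp from the middle and in the CACNG4 window at −68 bp, so the former spanned the edge of the left member and the latter lay inside it. In the GABRE window, around a gap of 171 bp, the match lay 23 bp to the right of the middle and thus between them. The left GABRE member had 9.62-fold enrichment and was not overlapped in siDLEU1 cells, while the right one, of 11.5-fold, was.

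Among all 3476 gaps of 1 to 400 bp between neighbouring members, 24.6% (23.2 to 26.1) held an AP-1 match in the 200 bp around their middle. The members' own summits held one in 6.68% (6.22 to 7.16) of 10754 windows of that length. A grid of 108300 points, set every 10 kb along intergenic sequence away from TSSs, gave 6.42%. Where the gap is under 200 bp, the window reaches into the flanking members. The share was 21.3% for gaps under 100 bp, 23.2% from there to under 200 bp, 26.8% from there to under 400 bp, 13.3% from 400 to 1000 bp and 5.57% beyond, up to 2000 bp. It stood above the grid in the classes up to 1000 bp. Matches were also confined in space. Their number was 14.8 and 14.6 per 100 gaps in the 100 bp on the left and right of the middle, and between 3.31 and 5.58 in the other bins of 100 bp out to 1500 bp.

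**Figure D1:**
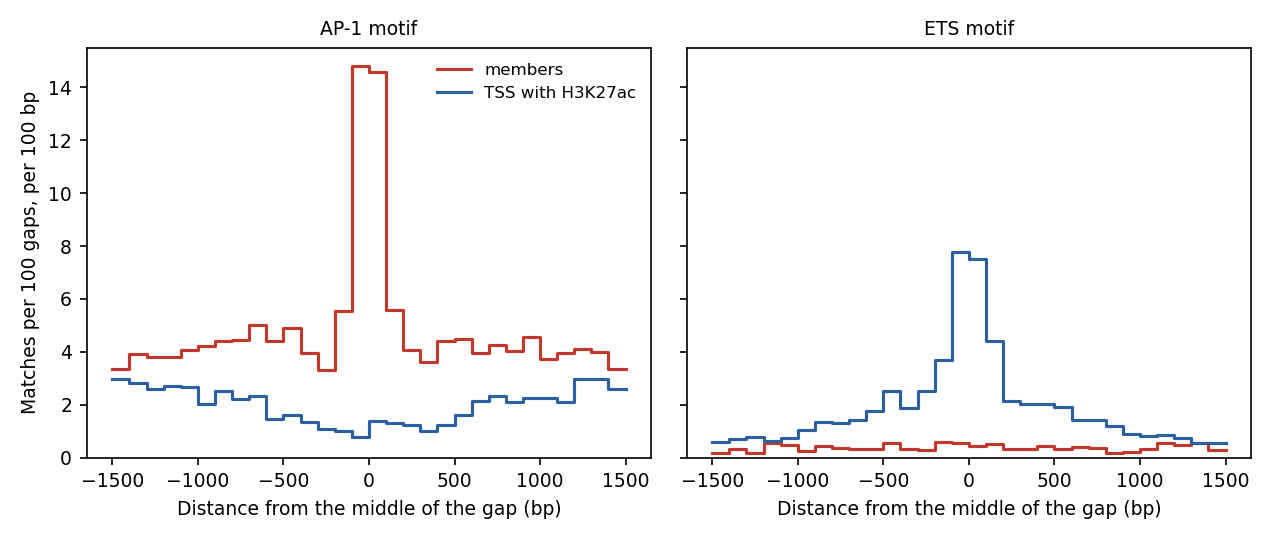
Matches to the AP-1 motif (left) and the ETS motif CCGGAAG (right) per 100 gaps and per 100 bp, against the distance in bp from the middle of the gap, for 3476 gaps between members (red) and 4877 gaps between TSS regions with H3K27ac (blue). AP-1 rises to 14.8 in the gaps between members, and ETS to 7.77 in the gaps at TSSs.

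The motif was as frequent in gaps of genic sequence without H3K27ac and rarer in gaps with it. Gaps between gene body regions without H3K27ac held AP-1 in 23.1% (22.1 to 24.2) and gaps between TSS regions without H3K27ac in 22.6% (20.5 to 24.8), whereas 2.01% (1.65 to 2.44) of the gaps between TSS regions with H3K27ac did. Of the 110 gaps between intergenic regions with H3K27ac, 3 held it. Gaps at TSSs with H3K27ac were richer in GC, with a median of 71.5% against 46.5% for the members' gaps. ETS, a family of factors known from promoters, showed the reverse order, with 0.978% of the gaps between members and 12.7% of those at TSSs with H3K27ac. The TEAD motif ACATTCC, bound by the partners of YAP, was found in 5.58% (4.87 to 6.39) of the members' gaps and 2.96% (2.86 to 3.06) of the grid. Gaps between gene body regions without H3K27ac had 5.48%, those at TSSs without H3K27ac 5.20% and those at TSSs with H3K27ac 0.984%. The RUNX motif TGTGGTT, at 4.43% against 3.93%, and the interferon response motif AANNGAAAC, at 5.52% (4.81 to 6.33) against 5.29%, differed little from the grid. NF-Y, the factor that binds CCAAT, had its motif in 21.9% of the members' gaps and 29.0% of the grid. A gap is defined by the calls and not by sequence, so the motifs were not used by the rule, but the gaps were examined after the members had been seen.

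The same gaps were partly found in siDLEU1 cells. Of the 3476 gaps, 1511 had a gap of the equivalent siDLEU1 regions within 200 bp, and 33.0% (30.7 to 35.4) of these held AP-1, against 18.2% (16.5 to 19.9) of the 1965 without one. With the same rule applied to the siDLEU1 lists, 31.2% (29.8 to 32.7) of 3946 gaps held the motif. Seen from that side the contrast was small. Of 1513 siDLEU1 gaps with a control gap within 200 bp, 33.6% (31.2 to 36.0) held AP-1, against 29.8% (28.0 to 31.6) of the 2433 without one. Among the 3476 control gaps, the share was 24.9% where the nearest gene had H3K27ac at its TSS and 24.4% where it had none.

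The strongest member, with 47.1-fold enrichment and 282 recovered fragments at its summit, was chr17:39810667-39812058. It lay 30527 bp from the TSS of KRT17, a keratin of basal and stressed squamous epithelium, and 15170 bp from KRT42P, a keratin pseudogene by name that is annotated as a lncRNA. In siDLEU1 cells it was overlapped by a region of 38.6-fold enrichment. The fold was lower there, but the summit signal was 9.92 fragments per M reads in siCONT and 11.3 in siDLEU1 cells. This member belonged to a row of 8 members over 21657 bp, chr17:39801770-39823426, of which all 8 were overlapped in siDLEU1 cells. Its neighbour chr17:39808541-39810562 had 39.7-fold enrichment and chr17:39812209-39819055 had 36.2-fold.

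**Figure D2:**
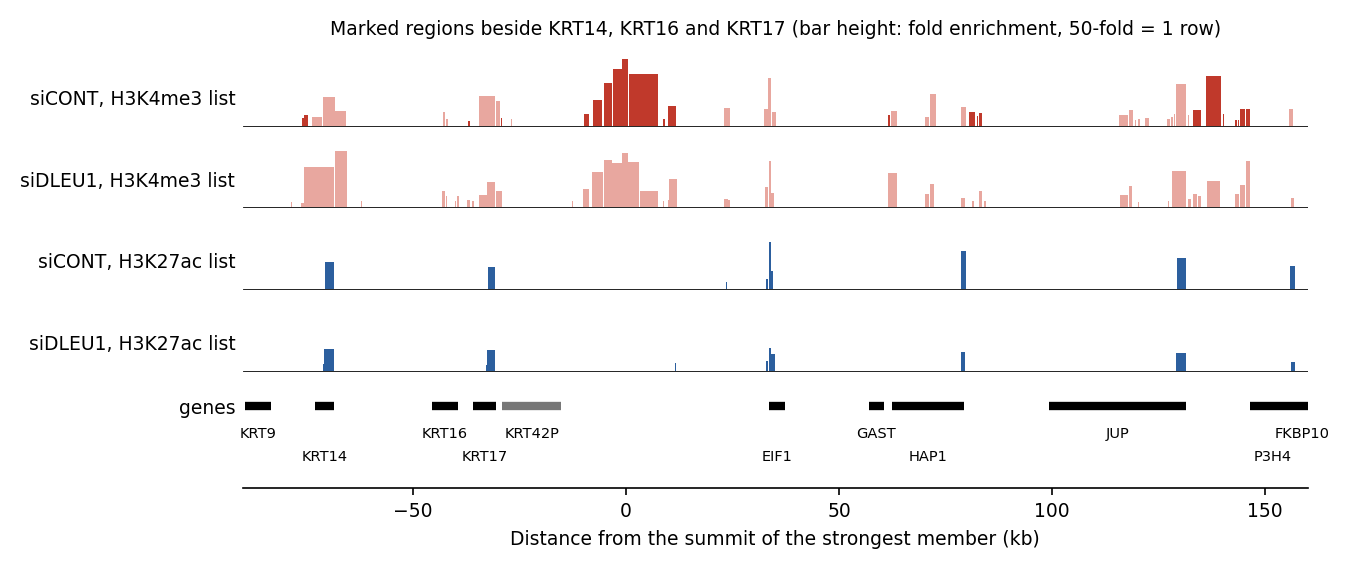
Regions of the 4 lists around the strongest member, as distance from its summit in kb from 90 kb to the left to 160 kb to the right, with bar height for fold enrichment and genes in the lowest row (black protein-coding, grey lncRNA). Members are dark red, other regions of the H3K4me3 lists light red and H3K27ac regions blue. The row of members around 0 has no control H3K27ac, which stands at the TSSs of KRT14, KRT17, EIF1, HAP1 and JUP. It also stands at 23.4 kb to the right and at 156 kb, within 1 kb of the adjoining ends of P3H4 and FKBP10.

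The next strongest member was also the widest, at 10696 bp and 43.0-fold enrichment. It was chr12:52537718-52548413, nearest to LINC00592 and 37420 bp from KRT80, another keratin gene. In siDLEU1 cells 3 regions lay over it, the strongest of 42.6-fold. It was followed by chr17:19653881-19657638, which had 42.5-fold enrichment and lay 3981 bp from ALDH3A1, an aldehyde dehydrogenase abundant in the cornea, with 41.9-fold in siDLEU1 cells. UBE2G1, a ubiquitin-conjugating enzyme, was nearest to chr17:4294832-4299880, with 40.03-fold in siCONT and 25.7-fold in siDLEU1 cells. B4GALNT4, a glycosyltransferase, was nearest to chr11:355170-356450, with 39.7-fold and 49.0-fold in the same order. The other members among the 8 strongest were chr10:49195513-49196112, 12067 bp from FAM25C, and chr12:14425563-14428380, 91701 bp from ATF7IP. All 8 were overlapped in siDLEU1 cells, at a percentile of at least 95.9 of that list. Fold enrichment is the ratio to local background given by the authors' peak caller, and it chose the order of these members. That background differs between the lists, so folds in siCONT and siDLEU1 cells are not on a common scale. The UBE2G1 member, for example, had 8.40 fragments per M reads in siCONT and 7.48 in siDLEU1 cells.

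After the KRT80 region, the widest members lay near MIR205HG, the host gene of miR-205, an epithelial microRNA, near MICALL1 and in the keratin row above. The member chr1:209555378-209564183, nearest to LINC01698, was 8806 bp wide, chr22:38289030-38295907, 7123 bp from MICALL1, was 6878 bp, and chr1:209582662-209589516, 16665 bp from MIR205HG, was 6855 bp. Joined over gaps of up to 10 kb, the members formed 4639 stretches, of which 2123 were a single member and 476 held 5 or more. The stretch with the most member sequence, 37666 bp in 18 members, ran along chr1:209554461-209600194 beside MIR205HG, and 17 of its members were overlapped in siDLEU1 cells. Others followed beside NCOA3 with 20 members and 10 overlapped, FAT2 with 11 and 9, and F3 with 23 and 21. These stretches thus differed in how many of their members were called again.

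As a whole the members were of moderate strength. Their median fold enrichment was 6.05 (range 2.25 to 47.1) and their median percentile within the H3K4me3 list 40.1, against 75.3 for TSS regions with H3K27ac, 69.0 for intergenic regions with H3K27ac and 36.1 for gene body regions without it. The median number of recovered fragments at the summit was 40, with quartiles of 29 and 62, and the lowest was 17. The median width was 455 bp (quartiles 297 and 782), and 456 members were wider than 2 kb. Of the members, 462 (4.30%) stood in the top decile of the list, where 23.1% of the TSS regions with H3K27ac were found.

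The members differed in base composition from TSS regions with H3K27ac. Their median GC content in the 200 bp around the summit was 50%, with quartiles of 44% and 55%, and their median CpG ratio was 0.192. The values were 59.0% and 0.628 for intergenic regions with H3K27ac and 64.5% and 0.724 for TSS regions with H3K27ac. A CpG ratio of at least 0.6 was found in 3.97% of the members, in 55.2% of the intergenic regions with H3K27ac and in 71.5% of the TSS regions with it. Gene body regions without H3K27ac, at 48.5% and 0.182, were like the members. TSS regions without H3K27ac were also nearer to the members than to TSS regions with it, at 52.5% and 0.251. Of them, 9.25% had a CpG ratio of at least 0.6. Among the 462 members of the top decile, 9 had a CpG ratio of at least 0.6, so the strong members shared the low CpG content. The CTCF motif CCANNAGGG was present at 5.20% (4.79 to 5.63) of the members' summits and at 2.29% of the grid. It was not particular to the members, with 5.13% at TSS regions with H3K27ac and 5.07% over all H3K4me3 regions. TATAAA was present at 8.85% of the members' summits against 22.2% of the grid. In the same order, the telomere repeat TTAGGGTTA had 0.121% against 0.112%, the satellite repeat ATTCCATTC 0.195% against 0.323% and the repeat TGTGTGTGT 1.24% against 2.07%. Of the members, 289 (2.69%) overlapped a pseudogene and 26 a small RNA gene.

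Of the 10754 members, 5402 (50.2%, 49.3 to 51.2) had a nearest gene with control H3K27ac at its TSS. Over all 38921 protein-coding and lncRNA genes 41.8% had such a region, and 24.7% (24.4 to 24.9) of the intergenic grid points lay nearest to one of these genes. The share was not particular to the members. It was 50.2% (47.4 to 52.9) for intergenic regions with H3K27ac, 70.2% for gene body regions without it and 74.2% for all control H3K4me3 regions. With protein-coding genes alone, 74.5% (73.6 to 75.3) of the members and 49.6% of the grid points had a nearest gene with H3K27ac. The median distance from summit to nearest TSS was 17562 bp, with quartiles of 7719 and 36889 bp, and to the nearest H3K27ac summit 33402 bp. The nearest gene was protein-coding for 6033 members and a lncRNA for 4721.

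The density of members fell with distance from the TSS and was higher beside genes with H3K27ac in each of the 7 distance classes. Over intergenic sequence nearest to genes with H3K27ac there were 20.2 members per Mb, and 6.56 over the rest. At 1 to 5 kb the values were 34.8 and 14.3 members per Mb, at 20 to 50 kb 21.7 and 7.97, and beyond 200 kb 2.56 and 0.784. Their strength changed little with distance. The median percentile beside genes with H3K27ac was 36.8 at 1 to 5 kb, 41.8 at 20 to 50 kb and 37.4 beyond 200 kb.

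**Figure D3:**
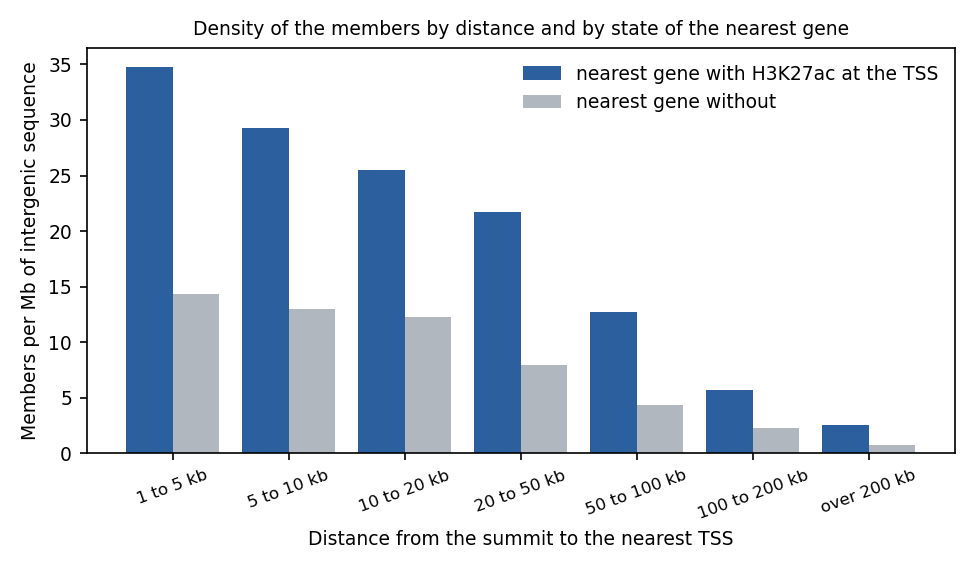
Members per Mb of intergenic sequence against the distance from the summit to the nearest TSS, for nearest genes with (blue) and without (grey) control H3K27ac at the TSS. Bars fall from 34.8 to 2.56 per Mb in blue and from 14.3 to 0.784 in grey, with the blue bar higher at each distance.

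Members came in groups. Another member lay within 10 kb of 80.3% (79.5 to 81.0) of them and within 1 kb of 66.4% (65.5 to 67.3). Gene body regions without H3K27ac were spaced alike among themselves, at 80.6% and 64.9%, and TSS regions with H3K27ac had 68.5% and 61.5%. Of the 1250 intergenic regions with H3K27ac, 26.2% had another of their kind within 10 kb. Each class was measured only among its own regions, so a small class has fewer close neighbours by its size alone. By chromosome, the density ran from 3.75 members per Mb of intergenic sequence on X and 4.94 on 4 to 22.9 on 22 and 24.8 on 17. The most crowded megabase, chr20:52000001-53000000, held 56 members around ZNF217, a zinc finger oncogene, BCAS1 and CYP24A1, and 41 of them were overlapped in siDLEU1 cells. The megabase chr21:44000001-45000000 followed with 53 members around SIK1, a salt-inducible kinase, and chr17:39000001-40000000 with the type I keratin genes held 45. Within 100 kb of an assembly gap or a chromosome end lay 2.37% of the members and 2.52% of the grid.

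The members had 3993 different nearest genes, 10.3% of all genes, and 108 genes were nearest to 10 or more. An unnamed lncRNA gene on chromosome 1, beside F3, the gene of tissue factor, was nearest to 26 members, of which 23 were overlapped in siDLEU1 cells. LINC00111 on chromosome 21 was nearest to 22, with 19 overlapped, and NEDD4, a ubiquitin ligase, to 22, with 16. Another unnamed lncRNA gene, on chromosome 17, was nearest to 21, with 13 overlapped. P3H2, a collagen prolyl hydroxylase gene, was nearest to 20, and all 20 were overlapped.

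Of 25 squamous epithelium genes, 15 were the nearest gene of at least 1 member. Over all protein-coding genes the share was 11.4%. The 56 members beside them included 14 at EGFR, the epidermal growth factor receptor, and 12 at KLF5, a squamous transcription factor. Of the 56, 49 (87.5%) were overlapped in siDLEU1 cells, against 72.6% of all members. Some neighbours among them lay under the same siDLEU1 region. The strongest of the 56 members lay at JUP, the gene of the junction protein plakoglobin. It was chr17:39947776-39951252 with 35.2-fold enrichment, and stood at percentile 99.7 of the siCONT list and 88.9 of the siDLEU1 list. Its summit signal was not lower, with 7.42 fragments per M reads in siCONT and 8.25 in siDLEU1 cells. At SFN, an epithelial 14-3-3 protein, chr1:27191875-27192964 had 24.4-fold enrichment, and the siDLEU1 region over it had 27.2-fold, but was 3473 bp wide with its summit 1215 bp outside the member. KRT5, the basal keratin, had 1 member of 20.9-fold and KLF5 a strongest member of 16.3-fold.

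The study followed representative interferon-stimulated genes. Of 45 genes of this class listed here, 4 (8.89%, 3.51 to 20.7) were nearest to a member, which was close to the 10.3% of all genes. They had 12 members in all, none of them in the top decile, which held 4.30% of all members. Of the 45 genes, 41 had H3K27ac at the TSS. All 12 members were overlapped in siDLEU1 cells, against 72.6% of all members. EPSTI1, an interferon-induced gene, was nearest to 9 of the 12, 5200 to 15112 bp away. Some of these lay under the same siDLEU1 region, so they were not separate calls there. The strongest of them, chr13:43577416-43578022, had 11.1-fold enrichment in control cells and 14.3-fold in siDLEU1 cells. The member at OASL, an oligoadenylate synthetase-like antiviral gene, went the other way. It was chr12:121497724-121498750, 21326 bp from the TSS, and its summit signal was 2.53 fragments per M reads in siCONT and 0.762 in siDLEU1 cells. IFIH1 and ISG15 had 1 member each.

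Of 17 AP-1 and NF-kB genes, 4 (23.5%, 9.56 to 47.3) were nearest to a member, and the interval held the 11.4% of all protein-coding genes. They had 9 members, 8 of them (88.9%) overlapped, against 72.6% of all members. FOSL2, an AP-1 subunit, had chr2:28599096-28602193 at 14476 bp, with 30.1-fold enrichment in siCONT and 31.99-fold in siDLEU1 cells. NFKBIA, the NF-kB inhibitor, had 6 members, of which the strongest, chr14:35860480-35860959, had 10.6-fold and 10.7-fold. Around DLEU1 in 13q14, 2 of 19 genes (10.5%, 2.94 to 31.4) were nearest to a member, close to the 10.3% of all genes. At CAB39L, chr13:49875500-49875878 had 8.07-fold enrichment in siCONT and 7.02-fold in siDLEU1 cells. At RCBTB1, the member chr13:50161200-50161423, of 4.29-fold, lay inside a siDLEU1 region of 21.5-fold and 3231 bp whose summit was 1222 bp outside the member.

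Among gene families, KRT genes were nearest to 58 members, 10 of them in the top decile, at 17 of 61 genes (27.9%, 18.2 to 40.2), against 10.3% of all genes. Olfactory receptor genes were nearest to 20 members at 8 of 422 genes (1.90%, 0.964 to 3.70), ZNF genes to 77 at 32 of 594 (5.39%, 3.84 to 7.51), PCDH genes to 3 at 2 of 72 (2.78%, 0.765 to 9.57) and LINC genes to 1036 at 328 of 2246 (14.6%, 13.2 to 16.1). The HOX clusters had 1 member, chr2:176963191-176963489 beside HOXD12, of 6.26-fold enrichment, which was not overlapped in siDLEU1 cells. The strongest ZNF members lay beside ZNF212, with 18.9-fold, and ZNF217, with 18.6-fold, and the strongest PCDH member beside PCDHGC3, with 18.0-fold. At the olfactory receptor genes the strongest were beside OR1I1, with 16.3-fold, and OR4C12, with 10.3-fold. The second strongest LINC member, of 35.8-fold, lay 13402 bp from LINC02038.

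In siDLEU1 cells, 7811 of the 10754 members (72.6%, 71.8 to 73.5) were overlapped by a region of the H3K4me3 list, against 76.4% of all 58582 control H3K4me3 regions. The share was 65.3% (64.7 to 65.9) for gene body regions without H3K27ac, 69.8% (68.7 to 70.9) for TSS regions without it, 87.7% for intergenic regions with it and 94.1% (93.7 to 94.4) for TSS regions with it. Members not overlapped were weak, with a median percentile of 21.7 and 29 fragments, against 49.6 and 48 fragments for those overlapped. Of them, 80.7% stood in the lowest 4 deciles. Recall is thus best read within strength, and from the lowest to the top decile the members' share rose as 48.9%, 50.6%, 56.7%, 66.4%, 77.2%, 84.8%, 92.3%, 96.9%, 99.7% and 99.8%.

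**Figure D4:**
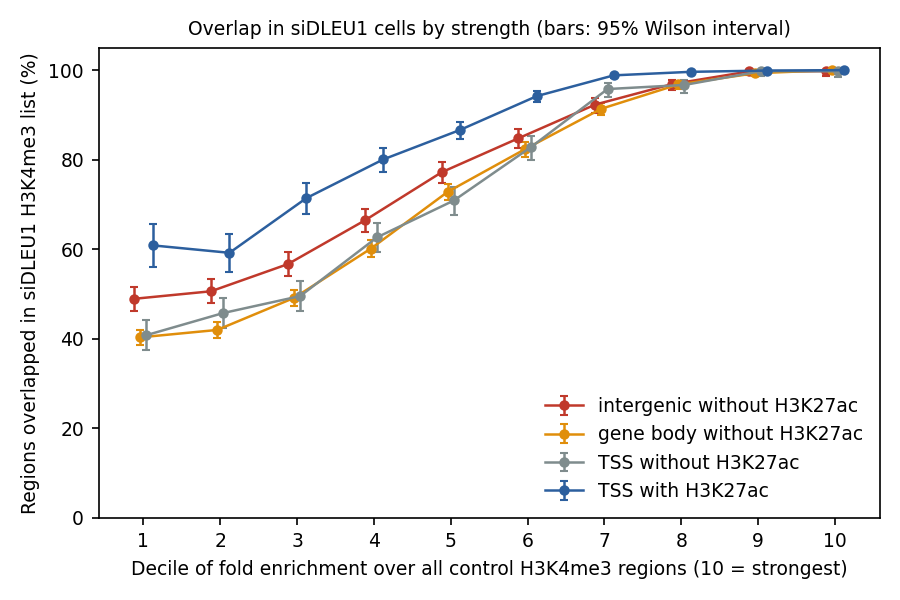
Share of control H3K4me3 regions overlapped in the siDLEU1 H3K4me3 list (%) against decile of fold enrichment, with 95% Wilson intervals, for members (red) and 3 other classes. Members rise from 48.9% to 99.8%, above gene body regions without H3K27ac in the lower deciles and below TSS regions with H3K27ac, and the classes meet at the top.

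Within deciles of fold enrichment, members were overlapped more often than gene body regions without H3K27ac by a mean of 3.91 percentage points (95% interval 3.12 to 4.71), and the share was higher in 9 of 10 deciles. The difference from TSS regions without H3K27ac was 2.89 points (1.84 to 3.93). Read from the siDLEU1 lists without deciles, both classes had the higher share, as given with the mirror set below. TSS regions with H3K27ac were overlapped more often than the members in all 10 deciles, and the mean difference of members minus these was −7.75 points (−8.78 to −6.71). From intergenic regions with H3K27ac the difference was −0.734 points (−3.49 to 2.03). Against all other H3K4me3 regions together it was 1.24 points (0.516 to 1.97), but −0.464 points when regions were matched on width in place of fold. Under fold, members were higher in 5 of 10 deciles, with differences from 6.28 points in the lowest decile down to −2.98 points. The sign of this difference therefore rested on the measure of strength and, under fold, on the strength itself. These intervals treat regions as independent, which neighbouring members are not.

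By chromosome, the share overlapped ran from 65.9% on chromosome 5 to 81.0% on chromosome 13, and with distance from the TSS it changed little. At 1 to 5 kb it was 69.7% (66.8 to 72.6) beside genes with H3K27ac and 71.1% (67.8 to 74.3) beside genes without, and at 50 to 100 kb 74.9% and 75.8%. Members beside genes with H3K27ac were overlapped in 71.6% and the others in 73.7%.

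Of the 7811 overlapped members, 6618 held the summit of the strongest siDLEU1 region over them, and 693 were overlapped by more than 1 siDLEU1 region. For these 6618 the median signal at the summit was 1.79 fragments per M reads in siCONT and 1.97 in siDLEU1 cells, and the median ratio of siDLEU1 to siCONT was 1.09 (quartiles 0.860 and 1.41). All other H3K4me3 regions with a shared summit gave 1.09 too, with quartiles of 0.876 and 1.33. The ratio fell with the control strength that had chosen the members, from 1.38 in the weakest of 5 strength classes of the list to 0.966 in the strongest. Weak members entered only where their siDLEU1 signal was high enough to be called. This selection by itself raises the ratio in the weak classes, so no change after knockdown can be read from the fall. Over the mirror set described below, chosen in siDLEU1 cells, the ratio of siCONT to siDLEU1 was 0.916.

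**Figure D5:**
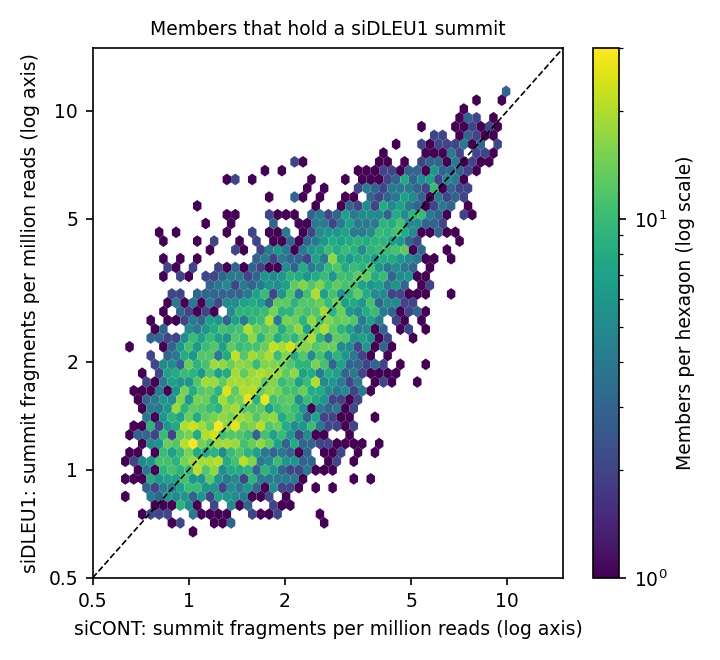
Summit signal of 6618 members in siCONT (x axis) and siDLEU1 cells (y axis), in recovered fragments per M reads on log axes, with colour for the number of members per hexagon and a dashed line of equality. Most members lie along the line, with a median ratio of 1.09, and more weak members lie above it than below. Only members with a called siDLEU1 summit inside are shown.

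A summit signal more than 2-fold higher in siDLEU1 cells was found for 416 of the 6618 members and one more than 2-fold lower for 137. Among the other H3K4me3 regions with a shared summit, 32635 in all, the numbers were 1097 and 507. These counts cover only regions called in both lists. The lowest ratio, 0.252, belonged to chr1:36951927-36952677, 3570 bp from CSF3R, the receptor of granulocyte colony-stimulating factor. Its signal was 3.73 fragments per M reads in siCONT and 0.941 in siDLEU1 cells. Members beside TSPAN33, ABCD4 and PXDC1 followed with ratios of 0.272, 0.284 and 0.285, and that at OASL had 0.301. The highest ratio, 5.82, belonged to chr6:64058116-64058414 beside LGSN, with 0.809 and 4.71 fragments per M reads in siCONT and siDLEU1 cells. These members were picked by their ratios, after the values were seen.

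Applied to the siDLEU1 lists, the same rule gave 12077 regions, here called the mirror set, out of 56943. Of these, 8244 (68.3%, 67.4 to 69.1) were overlapped in the control H3K4me3 list, against 78.8% of all siDLEU1 H3K4me3 regions. Within deciles of fold enrichment the mirror set was overlapped less often than the other siDLEU1 regions, by 7.26 points on average and in all 10 deciles. The mirror set resembled the members in GC content, with a median of 50%, and in CpG ratio, at 0.199.

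H3K27ac was almost never called over the members after DLEU1 knockdown. A siDLEU1 H3K27ac region overlapped 11 of the 10754 members (0.102%, 0.0571 to 0.183), against 0.25% of all control H3K4me3 regions without control H3K27ac. Gene body regions without H3K27ac were like the members, at 0.0976%, and TSS regions without it had 0.955%. In the other direction, 514 of the 12077 regions of the mirror set (4.26%, 3.91 to 4.63) were overlapped by control H3K27ac, against 6.8% of all siDLEU1 H3K4me3 regions without siDLEU1 H3K27ac. There the gene body regions without H3K27ac had 2.56% and the TSS regions without it 22.1%. The H3K27ac lists also differed in size, with 1562 regions away from TSSs in siDLEU1 cells and 3002 in control cells. The strongest of the 11 members was chr9:21575451-21577815, 16768 bp from MIR31HG, the host gene of miR-31, with 15.01-fold H3K4me3 enrichment in siCONT and 16.3-fold in siDLEU1 cells. The next lay beside GASAL1, at chr17:39821563-39823426 toward EIF1 in the keratin row, beside TBCB, and beside DYM-AS1 at 70364 bp from SMAD7, an inhibitor of TGF-beta signalling.

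The strongest members without any siDLEU1 H3K4me3 region formed a pair on chromosome 22 beside LINC01659. They were chr22:23800107-23801220, of 19.8-fold enrichment and 137 fragments, and chr22:23801325-23802402, of 17.5-fold and 117 fragments. The nearest siDLEU1 summit was 175817 bp away from the first, so the whole pair was missing from that list. The next were chr17:20372743-20373208 at LGALS9B, of 13.7-fold, and chr17:18377686-18378306 at LGALS9C, of 13.1-fold. Both lay about as far from their gene, at 2064 and 2123 bp from the TSS, and these galectin genes are close paralogs, so the values of both are uncertain. The part of read placement in them was not tested. The fifth, chr9:1238713-1239111, lay 184300 bp from DMRT2 and had 13.03-fold, with a siDLEU1 summit 6344 bp away. Of the 462 members in the top decile, 1 was not overlapped.

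The members farthest from a TSS lay on chromosome 3. The farthest, chr3:103998822-103999197, of 6.58-fold enrichment, was 1086776 bp from ALCAM, a cell adhesion gene, and was not overlapped in siDLEU1 cells. A group of 3 lay 923773 to 925640 bp from ALCAM, at chr3:104159809-104163087 in all, with up to 8.23-fold in siCONT cells and 12.01-fold in siDLEU1 cells. The remaining one, chr3:90383581-90383783, of 5.07-fold, was 203 bp wide and overlapped. At the limit of 1 kb, the members just inside had their nearer edge 1002 bp from IMPA2 and 1003 bp from a pair of unnamed lncRNA genes, with 3.28-fold, 3.45-fold and 17.03-fold. Regions just outside lay 995 bp from CCDC80 and CTTNBP2NL and 994 bp from MYL10, with 4.47-fold, 10.3-fold and 6.91-fold.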

How the data were processed

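ChIP-seq of H3K4me3 and H3K27ac in HSC3 cells was analysed from 4 peak lists. Reads from an Ion Proton sequencer were aligned by the authors to hg19 with bowtie2, and MACS2 was used to call peaks in each library. Versions and settings are not given in the sources used here. The deposited fold enrichment is a ratio to local background, and the deposited −log10 p and −log10 q are those of MACS2. The deposited score is a display value and was not used. Input libraries were not used here.

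The members and the gene lists were chosen with earlier results of these data known. Groups came from the sample titles. TSSs and genes were those of GENCODE release 44 lifted to GRCh37 (20098 protein-coding and 18823 lncRNA genes). Overlap meant at least 1 bp. Regions were ranked by fold within a list, and deciles were taken over the whole list. Where a region met several siDLEU1 regions, that of highest fold was used. The number of fragments at each summit was solved from fold and p, which returned the deposited p in nearly all regions, and reads were estimated with a genome of 2.7 Gb. Named regions were the 8 strongest, the 5 widest, the 5 strongest without siDLEU1 H3K4me3, the 5 strongest with siDLEU1 H3K27ac, the 5 farthest from a TSS, 3 on either side of the 1 kb limit and the 2 strongest beside each gene list or family. Genes named by number of members were the 5 with the most. The remaining ones were named after their values were seen. Motifs were searched on both strands of GRCh37, and the genome file carried no repeat masking, so the planned share of masked sequence was not computed. The TEAD and satellite motifs share the letters ATTCC. The gaps between members and the TEAD and RUNX motifs were added after the data were seen. Shares have 95% Wilson intervals. Mean differences over deciles have 95% normal intervals. Overlap, distance, fragment and motif functions were tested on simulated data. Alternatives were a TSS distance of 3 kb, a −log10 q of at least 10, whole regions outside genes, no H3K27ac within 1 kb, all gene types, stitching within 1 kb, overlap of 50% of both regions, equal numbers of regions and other matching measures. Python 3.11.15, numpy 2.4.6, pandas 2.3.3, scipy 1.17.1, pysam 0.24.0 and matplotlib 3.10.9 were used.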

Additional observations from a re-analysis of the deposited data

How the results depend on the processing

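No paired analysis was possible because each siRNA and mark had 1 library. The lists limit what can be seen. The weakest members rested on 17 fragments, a region absent from a list can have fallen just short of the caller's threshold, and the siDLEU1 H3K4me3 library had fewer reads than the control. Where no cause is given for a change below, the cause was not tested.

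The number of members was 3436 at −log10 q of 10 or more and 5761 after stitching, both of which leave fewer regions by construction. It stayed within 1.5 times of 10754 under the other 4 definitions. The share overlapped in siDLEU1 H3K4me3 was 48.3% with 50% of both regions, 83.7% within 1 kb, 95.6% at −log10 q of 10 or more, 76.1% with stitching and 73.8% with equal numbers of regions. For the mirror set the values were 46.1%, 77.9%, 91.6%, 71.9% and 67.3% in the same order. The difference from other H3K4me3 regions reversed to −0.464 points with deciles of width, and stayed within its interval with deciles of −log10 p and of fragments. The share overlapped in siDLEU1 H3K27ac was 1.84% within 1 kb. The median GC content was 48.1% over whole regions and 51.0% at −log10 q of 10 or more. The share of nearest genes with H3K27ac was 74.5% for protein-coding genes, 51.6% with a 3 kb window and 51.3% at −log10 q of 10 or more. The share of members with another close by was 75.8% at 5 kb and 88.3% at 50 kb. The share of gaps with AP-1, an analysis added after the data were seen, was 22.4% for gaps up to 1000 bp, 21.3% under 100 bp, 13.95% in 100 bp windows, 29.8% where both members reached a −log10 q of 10 and 31.2% in the mirror set. Of 35 alternatives, 9 stayed within the interval or 1.5-fold range of the value reported.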

Other observations

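Counted by nearest protein-coding gene, the members were most numerous at FAT1, a giant cadherin, and RIPK4, a kinase of epidermal differentiation, each with 29 members and 24 overlapped in siDLEU1 cells. CAMK1G, a calmodulin-dependent kinase gene and the nearest protein-coding gene to the MIR205HG stretch, had 28 with 26 overlapped, F3 28 with 24, ZNF217 28 with 18 and BMP2, a bone morphogenetic ligand, 26 with 13. Of these 6 genes, 5 had control H3K27ac at the TSS and CAMK1G had none. KLF5 had 19 members, all 19 overlapped, and was named after its values were seen.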
